A study of Mus musculus with 2 samples.

Results

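Ephrins are ligands tethered to the cell surface, and the Eph receptors that bind them are receptor tyrosine kinases on neighbouring cells. The A ephrins are held by a lipid anchor and the B ephrins span the membrane, so that contact can signal forward through the receptor and in reverse through the ligand. In bone the pair of ephrin-B2 and EphB4 is known from contacts between osteoclasts and osteoblasts, and ephrin-B1 from the shaping of the skull and its sutures. Here 10 genes of this family, the ligand genes Efna1, Efna2, Efna5, Efnb1 and Efnb2 and the receptor genes Epha2, Ephb2, Ephb3, Ephb4 and Ephb6, were followed in MC3T3-E1 cells, an osteoblast-like line from mouse calvaria. They were picked by symbol out of 55487 rows of a table of gene counts, and each symbol stood on 1 row.

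RNA was sequenced from cells exposed for 1 h to 10 nM parathyroid hormone (PTH) and from cells labelled untreated at 1 h, with 1 library for each condition. The hormone signals to osteoblasts by way of a receptor that raises cyclic AMP. All cells had been grown with 10% fetal bovine serum, plated at 25000 per cm2 and used 24 h later. The question asked of the pair was which genes PTH induced. The PTH library held 70036872 counts and the untreated library 66302211, and 16408 rows had 20 or more counts over both libraries and were compared. All 10 members were among them. With 1 library for each condition there is no replicate check, no p-value was computed, and every interval below is a 95% interval for counting error that compares these libraries and not the conditions. The response genes Nr4a2 and Nr4a3, which encode cyclic AMP-responsive nuclear receptors, stood at ratios of 13.6 and 10.3 in the library labelled PTH over the untreated one.

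All 10 listed osteoblast markers were measured, and their counts scaled by library size summed to 63072 CPM (counts for every 1000000 of the scaled library) in the PTH library and 59762 CPM in the untreated library. Most of these sums came from the collagen genes Col1a1 and Col1a2, at ratios of 1.05 each. The marker Bglap was low, at 1.26 CPM (87 counts) with PTH and 0.849 CPM (57 counts) untreated. Of the 10 markers, 5 had intervals wholly above 1 and 4 wholly below 1, beside 29.4% and 29.2% of all compared rows. Sp7, an osteoblast transcription factor gene, had 1974 counts with PTH and 4583 untreated. Its ratio of 0.418 met the rule of size given below. The matrix gene Ibsp stood at 0.774 and the PTH receptor gene Pth1r at 0.803, while Sparc stood at 1.15 and Bglap at 1.48 (1.05 to 2.11). The endothelial genes Cdh5, Kdr and Emcn, the leukocyte genes Ptprc and Adgre1, the osteoclast fusion genes Dcstamp and Ocstamp, the neuronal genes Rbfox3 and Snap25 and the epithelial genes Epcam and Cldn4 were listed at 0 in both libraries. The summed level of the 7 endothelial markers was 2.75 CPM with PTH and 2.04 CPM untreated, and that of the 5 epithelial markers 1.03 CPM and 0.730 CPM. Of the epithelial markers, Krt8 had 50 counts with PTH and 7 untreated, and Cdh1 had 14 and 42. Both met the rule of size, Krt8 upward and Cdh1 downward. The endothelial markers Erg and Egfl7 had 97 and 80 counts with PTH and 66 and 62 untreated. The 8 osteoclast and macrophage markers summed to 96.5 CPM with PTH and 87.1 CPM untreated, of which the protease gene Ctsk made up 93.3 CPM and 84.3 CPM. In that list Csf1r had 155 counts with PTH and 122 untreated, and Cd68 had 57 and 67. The 5 neuronal markers summed to 47.8 CPM with PTH and 39.8 CPM untreated, mostly from Map2 and Tubb3. Their part in the results below was not tested, and in RNA from a whole culture fewer cells of a type cannot be told apart from less RNA per cell.

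Of the 10 genes, Epha2 was the member whose interval lay wholly beyond 1.5-fold, at 1.58-fold higher in the PTH library. Efnb2 came next at 1.44-fold higher and Ephb3 was the lowest at a ratio of 0.743. Ephb4 was at a ratio of 1.00. The rule of size, an interval wholly beyond 1.5-fold, was thus met by 1 member upward and by 0 downward, while over all compared rows it was met upward by 5.39% and downward by 3.54%. Among the 9549 rows with 1000 or more counts, where intervals are narrow, it was met upward by 3.25% and downward by 1.57%. The median log2 ratio of the 10 members was 0.05, beside 0.00 for all compared rows.

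The count of members past the rule depended on its limit. At a limit of 0.32 on the log2 scale, in place of 0.58 for 1.5-fold, 2 members met it upward (Epha2 and Efnb2) and 1 downward (Ephb3), beside 9.11% and 7.39% of all compared rows. At 2-fold 0 members met it, beside 3.15% upward and 1.6% downward. With intervals widened for an assumed coefficient of variation between cultures of 0.1, 0 members met it, beside 4.14% upward and 2.46% downward, and for 0.2 it was likewise 0, beside 2.89% and 1.63%.

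The stretch upstream of the gene start is shown for 4 members, because these hold the letters of the cyclic AMP response element and are the 2 members with the highest and the 2 with the lowest ratios. RefSeq promoter windows (GRCm38.p6) were found for all 10 members, 11 windows in all, and the 250 bases before each start were searched on both strands for the full element TGACGTCA and for its shorter form TGACG. The shorter form lies within the full element, so a full match counts as both. The windows read 5′ to 3′ on the gene's strand, with matched letters in capitals. The Epha2 window is chr4:141300971-141301220 on the plus strand, that of Efnb2 is chr8:8661243-8661492 on the minus strand, that of Ephb3 is chr16:21204545-21204754 on the plus strand, and that of Efnb1 is chrX:99135811-99136060 on the plus strand. The Ephb3 window is printed over 210 bases, up to the gene start in GENCODE release M21, which lies upstream of the RefSeq start.
Epha2: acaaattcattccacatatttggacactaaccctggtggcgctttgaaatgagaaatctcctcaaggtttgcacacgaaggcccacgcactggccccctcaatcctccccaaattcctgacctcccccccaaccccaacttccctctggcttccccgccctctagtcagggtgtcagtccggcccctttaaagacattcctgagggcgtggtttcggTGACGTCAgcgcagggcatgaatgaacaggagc
Efnb2: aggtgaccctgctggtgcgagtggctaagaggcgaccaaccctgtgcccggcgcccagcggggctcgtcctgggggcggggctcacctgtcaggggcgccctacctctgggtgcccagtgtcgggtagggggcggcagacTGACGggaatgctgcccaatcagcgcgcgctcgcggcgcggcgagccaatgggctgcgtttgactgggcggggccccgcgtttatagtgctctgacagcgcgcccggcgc
Ephb3: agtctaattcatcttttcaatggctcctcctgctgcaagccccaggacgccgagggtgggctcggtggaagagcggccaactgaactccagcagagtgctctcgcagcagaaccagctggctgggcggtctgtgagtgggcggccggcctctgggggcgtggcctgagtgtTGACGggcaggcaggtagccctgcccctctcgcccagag
Efnb1: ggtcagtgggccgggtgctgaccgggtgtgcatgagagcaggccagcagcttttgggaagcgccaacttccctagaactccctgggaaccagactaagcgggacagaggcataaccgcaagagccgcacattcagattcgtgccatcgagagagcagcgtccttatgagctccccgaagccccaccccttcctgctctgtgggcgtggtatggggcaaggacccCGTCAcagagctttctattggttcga

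The full element stood in the window of Epha2, beginning 33 bases before the start, and in none of the other members' windows. Efnb2 held the shorter form 110 bases before its start, Ephb3 held it 79 bases before the RefSeq start, from which all these distances are counted, and Efnb1 held its reverse complement CGTCA 26 bases before. Of all 32851 RefSeq windows, 1.55% held the full element and 17.8% the shorter form. Among 10745 compared genes with a window, as the members are, 30.1% held the shorter form and 324 (3.02%) held the full element. The rule was met upward by 5.25% of genes with the full element and 4.38% of those without it. For the shorter form these shares were 4.51% and 4.35%. Downward it was met by 3.40% of genes with the full element and 2.50% of those with the shorter form. The downward share of genes without a match was not computed. Over all compared rows, with a window or not, it was 3.54%. The AP-1 letters TGACTCA or TGAGTCA stood in 0 of the members' windows and in 4.46% of all windows. The shorter form was therefore present in members with ratios above 1 and in members with ratios below 1. A match is a description of letters in the window.

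**Figure D1:**
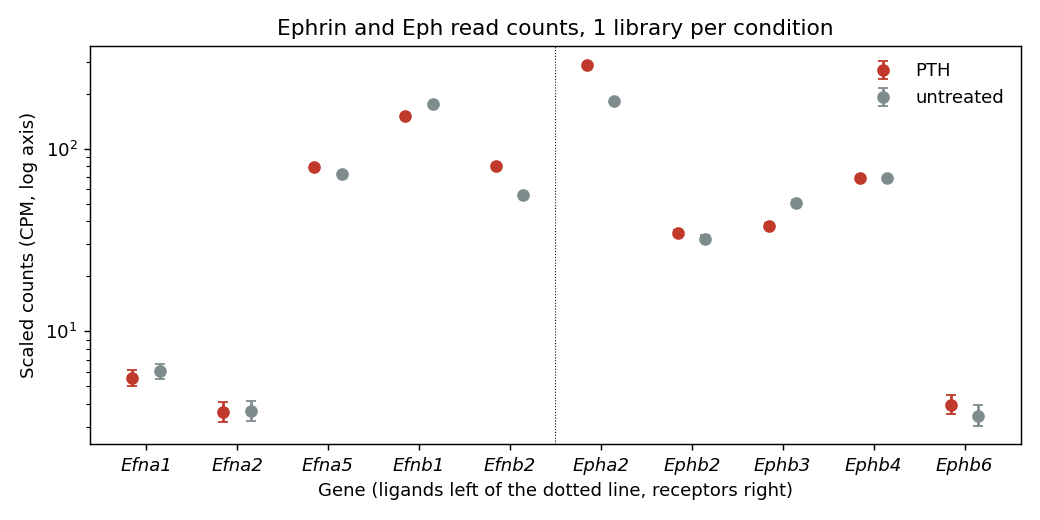
Scaled counts of the 10 genes in CPM on a log axis, with PTH (red, left) and untreated (grey, right) for each gene and bars for the 95% Poisson interval of 1 library. Epha2 stood at 287 CPM with PTH and 182 CPM untreated, and Efna2, Ephb6 and Efna1 lay under 10 CPM in both libraries.

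Among the receptor genes, Epha2 encodes a receptor for A ephrins that is found on osteoblasts and osteoclasts. The gene (ENSMUSG00000006445, chr4:141301240-141329384 in GRCm38, plus strand) had 19858 counts in the PTH library and 12213 in the untreated library. Scaled, these were 287 CPM with PTH and 182 CPM untreated. The ratio was 1.58 (interval 1.54 to 1.62), and 10.4% of all compared rows and 3.29% of the rows with 1000 or more counts had a higher ratio. With the interval widened for the variation of 0.1, it ran from 1.20 to 2.09 and no longer met the rule. The call thus holds for counting error alone.

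Ephb3 encodes a B receptor known for guiding axons and for closure of the palate. Its row (ENSMUSG00000005958, chr16:21204755-21223305, plus strand) had 2597 counts with PTH and 3395 untreated, which is 37.6 CPM and 50.6 CPM. The ratio was 0.743 (0.706 to 0.782), the lowest of the 10, and 4.43% of the rows with 1000 or more counts had a lower one. It met the rule at the limit of 0.32 on the log2 scale and not at 1.5-fold.

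The other B receptor genes lay closer to a ratio of 1. Ephb4, whose product is the main partner of ephrin-B2, had 4796 counts with PTH and 4649 untreated, or 69.4 CPM and 69.3 CPM. Its ratio of 1.00 (0.962 to 1.04) lay in the middle of all rows, 49.8% of which were higher, and it turned to 0.977 with total-count scaling and 0.984 with upper-quartile scaling. Ephb2, whose product acts with that of Ephb3 in palate and axon development, had 2394 counts with PTH and 2162 untreated, a ratio of 1.08 (1.01 to 1.14). Ephb6, whose product lacks kinase activity, had 274 counts with PTH and 232 untreated, and its interval of 0.959 to 1.37 held 1. At this depth no difference was detectable for Ephb4 or Ephb6, and the upper bound for Ephb4 was 1.04-fold for counting error alone. With the Ephb4 interval widened for a variation of 0.1, it ran from 0.757 to 1.33.

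Among the ligand genes, Efnb2 encodes ephrin-B2, the ligand of EphB4. It (ENSMUSG00000001300, chr8:8617434-8661242, minus strand) had 5539 counts in the PTH library and 3732 in the untreated library, which is 80.1 CPM and 55.6 CPM. The ratio was 1.44 (1.38 to 1.503), the highest of the 5 ligands, and 4.30% of the rows with 1000 or more counts had a higher one. The lower end of this interval lay below the 1.5-fold limit, so the rule was not met. Its upper end was 1.46 with total-count scaling and 1.48 with upper-quartile scaling. With the interval widened for a variation of 0.1 it ran from 1.09 to 1.91.

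Efnb1 encodes ephrin-B1, whose human gene is mutated in craniofrontonasal syndrome. It (ENSMUSG00000031217, chrX:99136130-99148991, plus strand) had 10472 counts with PTH and 11747 untreated, or 151 CPM and 175 CPM. The ratio was 0.866 (0.843 to 0.889), so the B ligands lay on opposite sides of 1. Efna5, a ligand of A receptors that also binds EphB2, had 5481 counts with PTH and 4856 untreated, at 1.10 (1.05 to 1.14). Efna1, a ligand of EphA2, had 383 counts with PTH and 406 untreated, at 0.916 (0.795 to 1.06). Efna2, a ligand named in osteoclast-to-osteoblast signalling through EphA2, had 250 counts with PTH and 247 untreated, at 0.983 (0.821 to 1.18). The intervals of Efna1 and Efna2 held 1, and their low counts left these intervals wide.

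**Figure D2:**
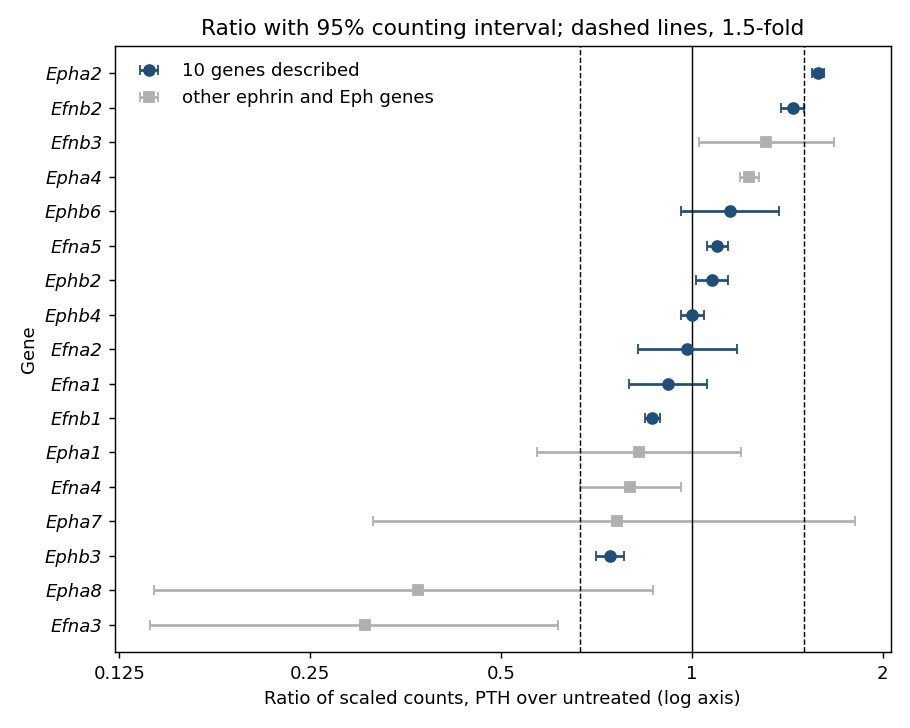
Ratio of scaled counts, PTH over untreated, on a log axis for the 17 ephrin and Eph genes with enough counts, with bars for the 95% counting interval, a solid line at 1 and dashed lines at 1.5-fold either way. Epha2 at 1.58 and Efna3 at 0.305 have intervals wholly outside the dashed lines, and the interval of Efnb2 just reaches the upper line.

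Of the 10 members, 4 had intervals wholly above 1 (Epha2, Efnb2, Efna5 and Ephb2), 2 wholly below 1 (Ephb3 and Efnb1) and 4 held 1, beside 29.4% above and 29.2% below over all compared rows. The interval of Ephb2 held 1 with total-count scaling (0.989 to 1.11) and upper-quartile scaling (0.996 to 1.12). Of the 7 members with 1000 or more counts, 6 had intervals off 1 with the TMM scaling (trimmed mean of ratios) used throughout, beside 67.8% of all rows at that depth, so an interval off 1 was common at that depth. The log2 ratios of the 10 ran between -0.43 and 0.66 with an SD of 0.33. The SD over rows with 1000 or more counts was 0.39. The median log2 ratio was -0.02 for the 5 ligands and 0.10 for the 5 receptors.

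**Figure D3:**
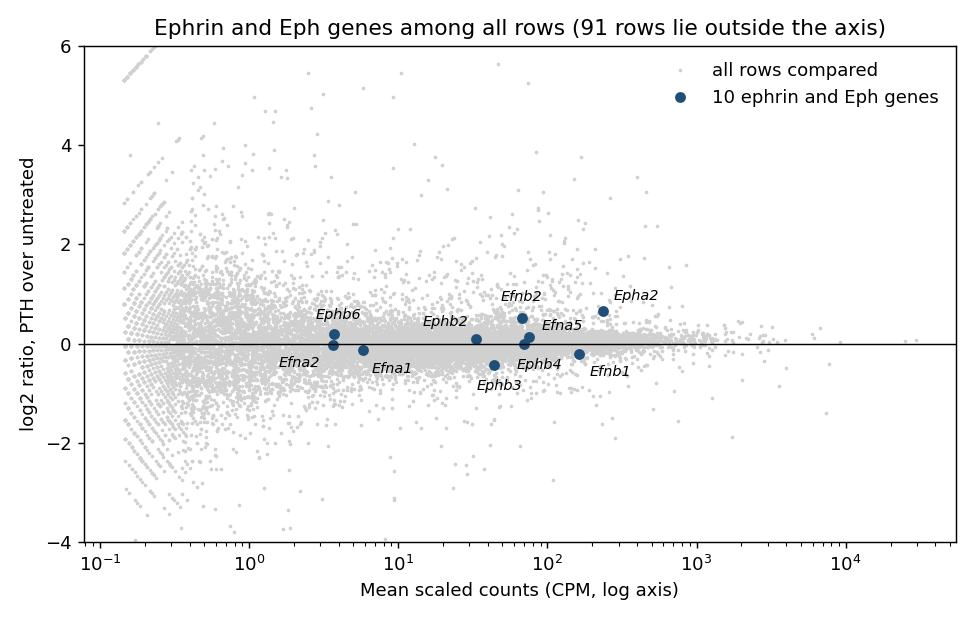
log2 ratio of PTH over untreated against mean scaled counts (CPM, log axis) for the 16408 compared rows in grey, with the 10 ephrin and Eph genes in blue; 91 rows lie outside the vertical axis. Epha2 (0.66), Efnb2 (0.53) and Ephb3 (-0.43) lie within the cloud. Of the rows with 1000 or more counts, 3.29% lay above Epha2, 4.30% above Efnb2 and 4.43% below Ephb3.

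Counts were divided by exonic length to set genes against each other, as CPM per kb of exon. On that scale Epha2 was the highest receptor gene, at 61.5 (60.6 to 62.3) with PTH and 38.9 (38.2 to 39.6) untreated. Ephb4 followed at 14.95 with PTH and 14.93 untreated, then Epha4, a receptor for both ephrin classes that is not among the 10, at 13.4 and 10.9. Ephb3 stood at 5.66 with PTH and 7.62 untreated, Ephb2 at 2.75 and 2.55, and Ephb6 at 1.05 and 0.916. The order of these 6 receptor genes was the same in both libraries, and no neighbours among them overlapped in their counting intervals. With the longest transcript as length the order was not the same, since Epha4 at 17.1 lay above Ephb4 at 15.99 with PTH, while untreated Epha4 at 13.9 lay below Ephb4 at 15.96.

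Efnb1 was the highest ligand gene per length, at 43.9 (43.0 to 44.7) with PTH and 50.7 (49.8 to 51.6) untreated. Efna5 followed at 19.7 with PTH and 17.9 untreated, Efnb2 at 11.7 and 8.11, and Efna1 at 3.03 and 3.30. Efna2 stood at 1.70 with PTH and 1.73 untreated. The 4 highest ligand genes kept their order and did not overlap, while the interval of Efna2 overlapped that of Efna4, the next above it, in the PTH library.

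Per length, Epha2 made up 61.7% of the summed level of all 14 Eph genes in the PTH library and 51.1% in the untreated library. The summed receptor level was 99.5 with PTH and 76.2 untreated, a ratio of 1.31, and without Epha2 it was 38.1 and 37.2, a ratio of 1.02. The summed level of the 8 ephrin genes was 82.7 with PTH and 85.0 untreated, a ratio of 0.973. Efnb1 made up 53.0% of the ligand level with PTH and 59.6% untreated, and Efnb2 14.1% and 9.54%. The ligand sum divided by the receptor sum was 0.831 with PTH and 1.12 untreated. These sums depend on the length used. With the longest transcript as length, the ligand sum was 90.7 with PTH and 91.9 untreated, and the receptor sum 119 and 91.2.

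Within a library, the level of Efnb2 divided by that of Ephb4 was 0.782 (0.752 to 0.813) with PTH and 0.543 (0.520 to 0.567) untreated. The 2 intervals did not overlap, but they cover counting error only. Among rows with 1000 or more counts, 67.8% had a PTH over untreated interval off 1. With intervals widened for a variation of 0.1, the PTH over untreated ratios of Efnb2 (1.09 to 1.91) and Ephb4 (0.757 to 1.33) overlapped. The level of Efnb2 over that of Ephb4 also depends on the length used. With the longest transcript in place of all exons it was 1.05 with PTH and 0.727 untreated. Efnb2 divided by Efnb1, both per length, was 0.266 with PTH and 0.160 untreated.

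**Figure D4:**
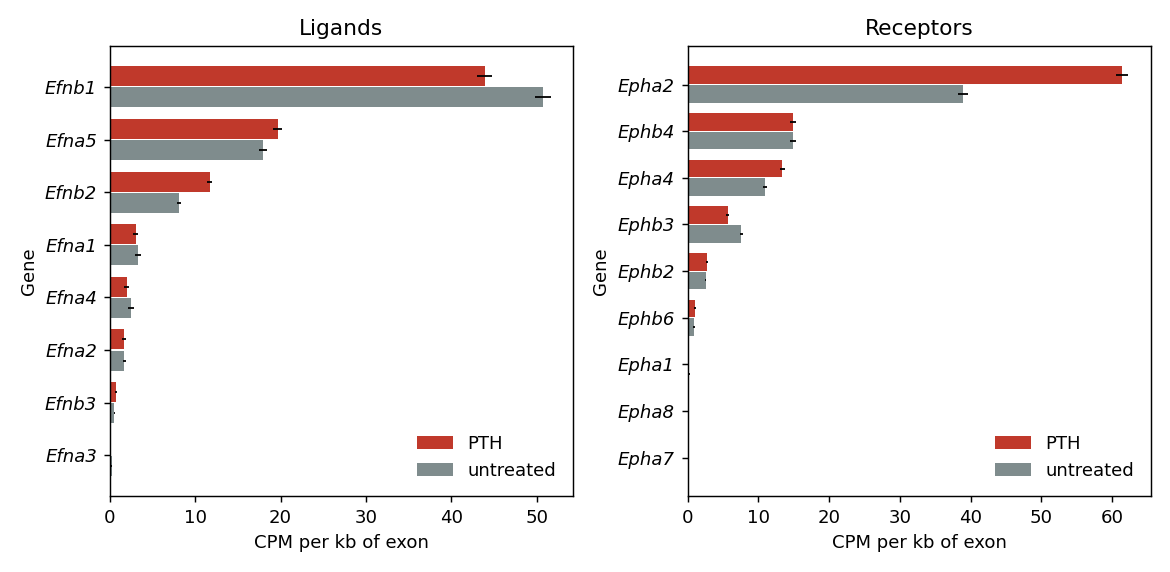
CPM per kb of exon for the ligand genes (left panel) and receptor genes (right panel), with PTH (red) above untreated (grey) and bars for the 95% Poisson interval. Efnb1 and Epha2 are the longest bars of their panels in both libraries, and the Epha2 bar is 61.5 with PTH and 38.9 untreated.

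The rest of the family was low or listed at 0, apart from Epha4. Of 12 further ephrin and Eph genes, 7 were compared. The rule was met downward by 1 of these and upward by 0, beside 3.54% and 5.39% of all compared rows. That gene was Efna3, an A ephrin gene, with 11 counts with PTH and 35 untreated, a ratio of 0.305 (0.140 to 0.615), and 14.1% of its exonic length overlaps a gene on the opposite strand. Epha4 had 7469 counts with PTH and 5891 untreated, at 1.23 (1.19 to 1.27). Efnb3, the third B ephrin gene, had 159 and 118, at 1.31 (1.02 to 1.67), and Efna4, an A ephrin gene, had 219 and 266, at 0.800 (0.666 to 0.960). Epha8, a receptor gene, had 8 counts with PTH and 21 untreated, at 0.370 (0.142 to 0.869). The receptor genes Epha1 and Epha7, with 57 and 11 counts with PTH and 67 and 14 untreated, had intervals that held 1. The genes Epha3, Epha5, Epha6, Epha10 and Ephb1 were listed at 0 in both libraries. Over the whole series 598 rows had 0 counts in either library and between 10 and 29 in its partner, so a listed 0 is given as such and not as a limit.

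Genes that carry Eph and ephrin signals inside the cell were read from lists. Beside the counts below, 5.39% of all compared rows met the rule upward and 3.54% downward. In the forward list, of adaptors, kinases and other proteins downstream of Eph receptors, 21 of 22 genes were compared, with 1 past the rule upward, 0 downward and a median log2 ratio of 0.01. That gene was Ngef, which encodes ephexin, with 29 counts with PTH and 8 untreated, at 3.52 (1.57 to 8.91). Its counts were low, and with the interval widened for a variation of 0.1 the lower bound was 1.497 and no longer past the limit. In the reverse list, of proteins that bind or act on ephrin-B tails, 8 of 9 were compared, with 0 past the rule upward, 1 downward and a median log2 ratio of -0.01. That gene was Rgs3, which limits G protein signalling and has a form that binds ephrin-B tails, with 776 counts with PTH and 4326 untreated, 5.74-fold lower (5.32 to 6.20). The counts are summed over all forms of Rgs3. Of 11 genes for cleavage and dephosphorylation, 10 were compared, 0 met the rule in either direction and the median log2 ratio was -0.07. In that list Adam10, a protease that sheds ephrins, stood at 1.05 (1.02 to 1.09), and Ncstn, a subunit of gamma-secretase, at 0.934 (0.903 to 0.966).

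**Figure D5:**
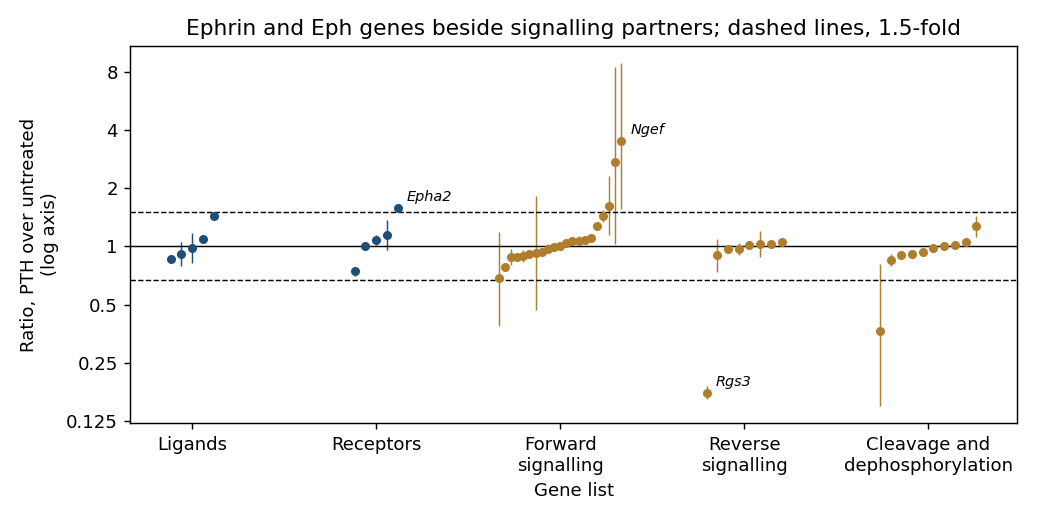
Ratio of scaled counts, PTH over untreated, on a log axis for the 5 ligand and 5 receptor genes (blue) and for genes of 3 partner lists (brown), each sorted by ratio, with bars for the 95% counting interval. Genes past the 1.5-fold dashed lines with their whole interval are named, and Rgs3 at 0.174 is the farthest from 1.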

How the data were processed

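The authors deposited 1 table of raw counts per gene, with 1 column for each of 2 libraries, of 55487 rows. HISAT2 and the mm10 build are named in the submitters' processing notes; the sources used here do not give the counting tool, annotation or strand setting. Column totals were 70036872 (PTH) and 66302211 (untreated). Counts were scaled by edgeR 4.0.16 TMM effective library sizes (R 4.3.3) on the 16408 rows with 20 or more counts. No quasi-likelihood fit was possible, since a single library in each group gives 0 residual degrees of freedom. The ratio of scaled counts has a 95% exact conditional (Clopper-Pearson) interval, and single levels an exact Poisson interval (scipy 1.17.1); both cover counting error only, and PCR copies are not independent molecules. A row met the rule of size when its interval lay wholly beyond 1.5-fold. Both libraries had 0.5 count added before log2 was taken. Coordinates, exonic lengths and overlaps came from GENCODE M21 (GRCm38, also called mm10), which holds 55227 of the row identifiers, and promoter windows from RefSeq (GRCm38.p6). Of the 10 members, 9 share no exonic base with another gene, and Ephb4 shares 0.711% with Zan on the opposite strand. The ratio interval was tried on simulated counts with known fold changes and Poisson error only, which is the error it assumes. Variation between cultures and PCR copies were not simulated, so the trial says nothing about them. Alternatives were 3 scalings (total counts, the median-of-ratios factors of DESeq2 1.42.0, upper quartile), count filters, fold limits, widened intervals (normal on the log scale), the added count and the length. The members and lists were chosen with earlier results of these data known. The 21 named genes are the members, every other family gene with 20 or more counts, and per partner list up to 4 genes past the rule or, with none, the 2 with most counts; other genes, such as markers and neighbours, were added as context.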

Additional observations from a re-analysis of the deposited data

How the results depend on the processing

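With 1 library for each condition no replicate could be left out, and no paired analysis was possible because a single library stands for each condition. Under the 3 other scalings and without the count filter, the counts past the rule stayed as reported for the members and each list, and the median log2 ratio of the members lay between 0.02 and 0.05. Epha2 met the rule under every scaling, with a lower bound that was 1.505 under total counts, where its ratio was 1.54. Members past the rule upward numbered 2 at a limit of 0.32 on the log2 scale (Epha2 and Efnb2) and 0 at 2-fold and with intervals widened for a variation of 0.1 or 0.2; downward they numbered 1 at that lower limit (Ephb3). Further family genes past the rule numbered 0 with a filter at 100 counts, at 2-fold and with a variation of 0.2. Forward genes numbered 2 at the lower limit and 0 at 2-fold, with the filter at 100 counts and with either widening. The filter at 100 counts removed Efna3 (46 counts) and Ngef (37 counts), so its result of 0 for both lists was fixed in advance. With the longest transcript as length, Efnb2 over Ephb4 was 1.05 with PTH and 0.727 untreated. Of 206 ratios of named genes under an alternative, 196 kept their side of the rule, 8 were no longer past it and 2 were newly past it. Part of the 196 could not have changed. The added count does not enter the interval, and a gene not past 1.5-fold cannot be past 2-fold. Among the 206, the ratio of Ephb4 alone crossed 1. Depth limits Efna1, Efna2, Ephb6 and the further family genes other than Epha4.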

Other observations

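The nearest compared protein-coding neighbours of the members were read after their values were seen. At lower coordinates than Epha2 on chromosome 4, 43675 bases away, lies Arhgef19, which encodes a protein of the ephexin family and is also in the forward list. It had 1931 counts with PTH and 1311 untreated, a ratio of 1.43 (1.33 to 1.54), beside 1.58 for Epha2. On the other side, 38835 bases away, Fam131c had 55 counts with PTH and 71 untreated, and its interval of 0.519 to 1.08 held 1. Arglu1, which lies 3832 bases beyond the start of Efnb2, had 7528 counts with PTH and 8124 untreated, at 0.900 (0.872 to 0.929), against 1.44 for Efnb2.

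Several family genes lie near each other on a chromosome. On chromosome 3, Efna1, Efna3 and Efna4 are separated by 32756 and 10424 bases. Their ratios of 0.916, 0.305 and 0.800 were all below 1. The intervals of Efna3 and Efna4 lay below 1, as did those of 29.2% of all compared rows. Efna3 had 46 counts in total, and 10.5% of the exonic length of Efna4 overlaps a gene on the opposite strand. Slc50a1, 1162 bases from Efna1 on its other side, stood at 0.962 (0.893 to 1.04). On chromosome 4, Ephb2 and Epha8 are 93430 bases apart and stood at 1.08 and 0.370.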
